A study of Rattus norvegicus with 20 samples.

Results

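Glycolysis and its hypoxia-induced companions were followed as 39 listed genes: 16 enzymes of the glycolytic chain (Hk1 to Ldhb in the order of the pathway) and 23 other genes that low oxygen is known to raise, among them glucose and lactate transporters, regulators of glycolysis and genes of the oxygen-sensing loop. A member entered where the platform annotation gave it a probe set of its own with 1 symbol, and the brightest such probe set stood for the gene. This left 33 of the 39 members, out of 18166 genes measured in the same way. They are 11 glycolytic enzymes and 22 remaining members. Tpi1, Eno1, Pkm and Bnip3 lay on probe sets with several symbols, Hk1 and Pgam1 had no entry in the annotation used here, and these 6 have no value.

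The cells were INS-1, a rat insulinoma line that secretes insulin, and the study asked how the complement inhibitor C4BP (C4b-binding protein), found in plasma, alters the response of beta cells to islet amyloid polypeptide (IAPP), a beta-cell hormone that forms amyloid. All 4 groups were INS-1 wells in RPMI medium. RNA was taken 10 h after treatment and hybridised to 20 Affymetrix Rat Gene 2.0 arrays, 5 for each title word. By the series text, wells titled IAPP received 77 uM monomeric IAPP, and wells titled DMSO received the solvent of IAPP at 1%. The remaining conditions were C4BP at 0.6 uM with IAPP and C4BP at the same dose alone. The sample protocol gives the doses by mass, at 300 ug/ml for each protein. The titles C4BP and C4BPD are not spelled out. Their likely reading is C4BP together with IAPP for C4BP and C4BP without IAPP for C4BPD, and the groups are named by title throughout. Whether the C4BPD wells also held DMSO is not stated in the labels. A separate treatment field names the condition of the title for 2 arrays out of the 10 in the DMSO and IAPP groups, and for 3 of the 20 arrays overall under that reading. Every direction reported therefore rests on the titles. The line is 1 tumour line carried as 5 clones over 10 passages. The labels do not say whether the replicate numbers 1 to 5 stand for these clones, so p-values measure the spread between these samples. The titles also carry a running number. By it the 4 arrays of each replicate number follow one another, always in the order IAPP, C4BP, C4BPD and DMSO. What this order stands for is not stated, and title group and place in the order cannot be told apart.

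Glycolysis turns glucose into pyruvate, and its committed step is phosphofructokinase, which a signalling sugar phosphate made by the PFKFB enzymes switches on. When oxygen falls, the prolyl hydroxylases (Egln1 and Egln3 among them) no longer mark the HIF alpha subunits for destruction, and HIF then binds DNA at a short core and raises transporters, glycolytic enzymes, pyruvate dehydrogenase kinase, angiogenic factors and its own hydroxylases. Beta cells are known for coupling glucose breakdown to mitochondria and insulin release. They keep lactate dehydrogenase A and the pyruvate and lactate carrier of the plasma membrane low.

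The core that HIF recognises reads ACGTG or GCGTG, and both were searched on both strands of the promoters that RefSeq gives for the rat genome GRCr8, from 250 bases before to 50 bases after the start of the gene. A promoter was found for 29 of the 33 members (Pgk1, Slc2a3, Bnip3l and Ndrg1 were not matched). ACGTG occurred in 16 of the 29 (55.2%), against 19.7% of all 27457 promoters in the same table. Either core occurred in 21 (72.4%), against 42.9% of all promoters. The 5 promoters below belong to members on which the results turn. Ankrd37, Pfkfb3 and P4ha1 hold matches and gave lower signal in wells titled C4BPD or C4BP. In Pfkfb3 the matches are both strands of a single CACGTG. Pfkfb4 gave lower signal and holds none, and Pdk1, a HIF target with matches, passed no test. Capitals mark the matches, each sequence runs 5′ to 3′ on the strand of the gene, and a palindromic CACGTG counts once per strand.

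Ankrd37: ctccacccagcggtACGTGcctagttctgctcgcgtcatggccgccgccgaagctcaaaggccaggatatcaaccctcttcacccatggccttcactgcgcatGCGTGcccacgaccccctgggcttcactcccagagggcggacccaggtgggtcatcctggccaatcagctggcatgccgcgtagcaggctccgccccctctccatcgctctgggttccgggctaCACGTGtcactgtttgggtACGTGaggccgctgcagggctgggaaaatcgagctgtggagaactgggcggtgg
Pfkfb3: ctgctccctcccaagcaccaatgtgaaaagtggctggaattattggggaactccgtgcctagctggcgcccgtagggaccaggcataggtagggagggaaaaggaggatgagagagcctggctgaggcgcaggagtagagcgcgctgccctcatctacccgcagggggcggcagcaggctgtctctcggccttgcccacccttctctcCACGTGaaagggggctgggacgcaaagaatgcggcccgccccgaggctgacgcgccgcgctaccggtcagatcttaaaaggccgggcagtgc
P4ha1: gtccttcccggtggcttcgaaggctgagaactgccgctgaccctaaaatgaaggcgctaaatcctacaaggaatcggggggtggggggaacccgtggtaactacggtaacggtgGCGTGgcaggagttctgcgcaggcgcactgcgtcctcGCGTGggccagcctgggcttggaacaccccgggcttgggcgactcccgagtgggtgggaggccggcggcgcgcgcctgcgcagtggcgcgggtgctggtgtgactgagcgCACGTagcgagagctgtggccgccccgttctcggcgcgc
Pfkfb4: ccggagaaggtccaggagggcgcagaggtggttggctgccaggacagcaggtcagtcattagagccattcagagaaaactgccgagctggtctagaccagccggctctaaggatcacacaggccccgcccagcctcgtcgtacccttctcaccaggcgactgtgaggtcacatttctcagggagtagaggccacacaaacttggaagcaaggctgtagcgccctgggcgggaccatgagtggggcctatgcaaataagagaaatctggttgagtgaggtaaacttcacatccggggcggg
Pdk1: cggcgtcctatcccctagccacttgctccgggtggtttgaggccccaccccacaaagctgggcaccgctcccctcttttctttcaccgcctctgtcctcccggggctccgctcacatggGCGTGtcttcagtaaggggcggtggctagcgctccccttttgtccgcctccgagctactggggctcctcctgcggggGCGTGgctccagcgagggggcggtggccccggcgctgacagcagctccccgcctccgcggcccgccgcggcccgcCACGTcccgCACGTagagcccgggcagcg

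The Ankrd37 window (chr16:53001257-53001556, plus strand) held 5 matches, that of Pfkfb3 (chr17:71944683-71944982, plus strand) 2 and that of P4ha1 (chr20:27844796-27845095, plus strand) 3. The Pdk1 window (chr3:77113264-77113563, plus strand) held 4 and the Pfkfb4 window (chr8:118525916-118526215, plus strand) 0. A match is a run of letters, not a measured binding site. Either core was present in 7 of the 9 members that fell with C4BP over both IAPP states (77.8%) and in 14 of the 20 other matched members (70.0%). For ACGTG alone the shares ran the other way, 44.4% and 60.0%. By role, 8 of 10 glycolytic enzymes and 13 of 19 remaining members held either core.

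Array medians over all probe sets lay between 170.01 and 182.36 intensity units, and the number of arrays limits the precision. Of the 33 members, 29 had a lowest group mean at or above the median of all probe sets (7.459 on the log2 scale). Hk2, Ldha, Slc2a3 and Slc16a3 had a lowest group mean below it, Slc16a3 in C4BPD only (7.441), so a signal over background was not shown for them. Of the 15 beta-cell markers 12 were measured, and all 12 were above that median. Their summed intensity ran from 73529 to 77524 in DMSO, 70336 to 73896 in IAPP, 74029 to 78227 in C4BPD and 69571 to 74200 in C4BP. Glucagon RNA (Gcg) was also bright, at 10304 ± 285 (SD, n = 5) in DMSO and 9400 ± 166.5 in IAPP. Of 5 measured markers of alpha, delta and PP cells, 3 were above the median. Of these 5, only Gcg was called in IAPP vs DMSO, with a log2 difference of -0.13. Of the markers of other cells, 2 of 9 acinar and duct, 4 of 8 fibroblast and 0 of 6 endothelial and immune genes reached the median. Among beta-cell markers Slc2a2, Mafa and Isl1 fell in IAPP (limma adjusted p from 0.0366 to 0.0407), 4 fell in C4BP and 0 of 12 were called in C4BPD, against DMSO. Their part in the results below was not tested, and in bulk RNA fewer cells of a kind and less RNA per cell cannot be told apart.

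A difference was called where its limma adjusted p, over all 18166 genes, was under 0.05. Of the 33 members, 16 were called in at least 1 of the comparisons: 5 of 11 glycolytic enzymes and 11 of 22 remaining members. The share of all genes called in at least 1 comparison was not counted, so this pooled count has no background beside it. Against DMSO, 8 members were called in C4BPD and 10 in C4BP, every one of them lower, and 2 in IAPP, 1 in each direction. Over all genes, 1.93% were called in C4BPD vs DMSO (0.765% lower), 5.96% in C4BP vs DMSO (3.23% lower) and 3.38% in IAPP vs DMSO (1.41% higher, 1.97% lower). Adding C4BP to IAPP (C4BP vs IAPP) gave 4 members lower and 0 higher, where 0.606% of all genes were called and 0.231% were lower. The F test across the 4 groups called 14 members (3 of 11 enzymes and 11 of 22 remaining members) and 7.85% of all genes. The 5 C4BPD arrays lay wholly below the 5 DMSO arrays in 12 members (1.83% of all genes), and the C4BP arrays did so in 13 (3.28%). The count for IAPP vs DMSO was 4 with centred arrays, with quantile normalization or with dim genes left out, each adding Pfkfb3 and Bnip3l as lower, and it was 1 without any of 10 single arrays (DMSO 2, 3, 4 or 5, IAPP 1, 2 or 4, C4BPD 2 or 5, or C4BP 4). With the arrays grouped by the treatment field in place of the titles, limma called 0 of 18166 genes in every comparison. At an unadjusted p under 0.05 that grouping gave 426 to 929 genes and 0 to 2 members.

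**Figure D1:**
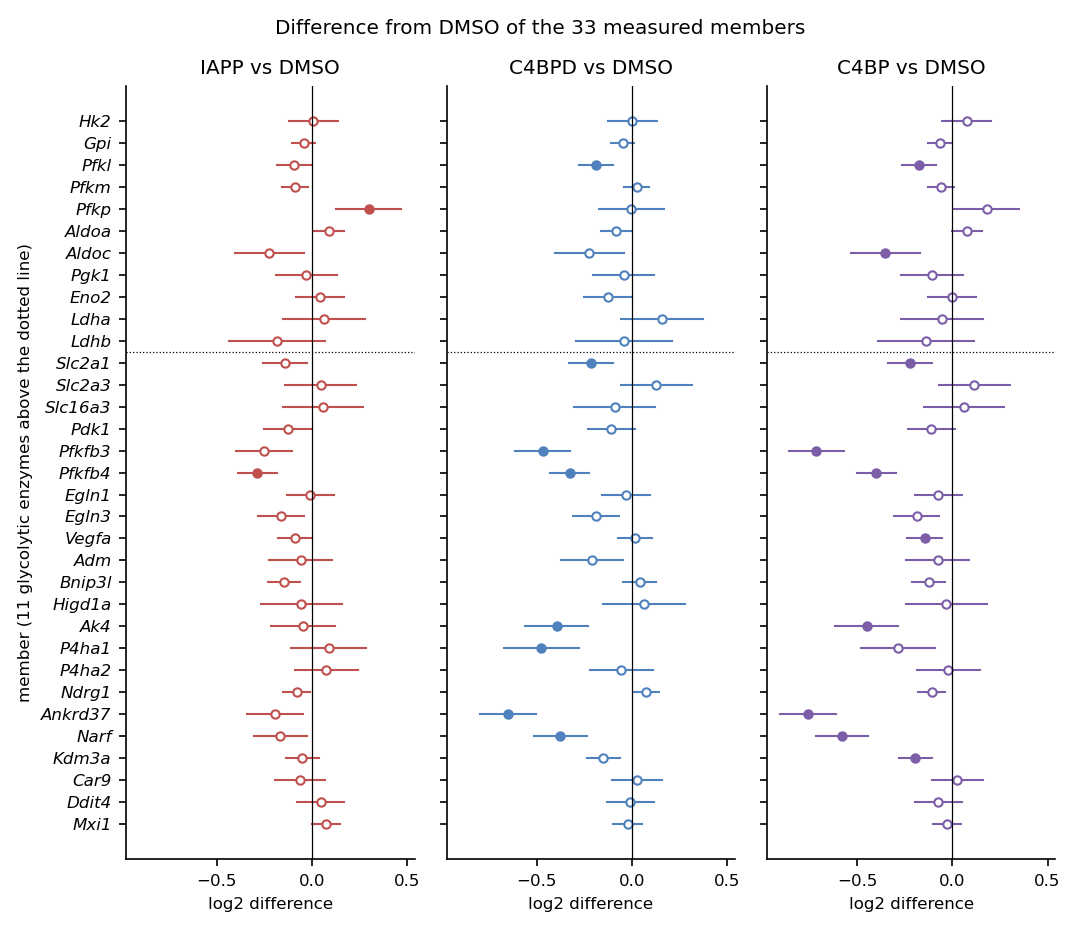
Log2 difference from DMSO (x axis) of each of the 33 measured members (y axis) in wells titled IAPP, C4BPD and C4BP. Points are limma estimates from 5 arrays a group, lines are 95% intervals, and filled points have an adjusted p under 0.05. In the C4BPD and C4BP panels all filled points (8 and 10) lie left of 0, the lowest being Ankrd37 at -0.65 and -0.76.

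Glycolytic enzymes and remaining members are set side by side here as counts and medians. In IAPP vs DMSO 1 of 11 enzymes and 1 of 22 remaining members were called, with median log2 differences of -0.028 and -0.060, beside 0.0018 over all genes. In C4BPD vs DMSO 1 of 11 enzymes and 7 of 22 remaining members were called, with median log2 differences of -0.044 and -0.10, while the median of all genes was -0.0090. In C4BP vs DMSO the counts were 2 of 11 and 8 of 22, with medians of -0.059 and -0.12, beside 0.0047 over all genes. In C4BP vs IAPP 0 of 11 enzymes (0 also at an unadjusted p under 0.05 in limma) and 4 of 22 remaining members were called. Whether the 2 sets differ was not tested, because the members were chosen with results known. The plot of array medians shows the same values array by array. For the remaining members, the 5 DMSO arrays had medians of 0.056 to 0.11 above the mean of each gene over all arrays, and the 5 C4BP arrays lay at -0.10 to -0.035, with no overlap. For the glycolytic enzymes, DMSO ran from -0.0011 to 0.049 and C4BP from -0.071 to 0.032, which overlapped.

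**Figure D2:**
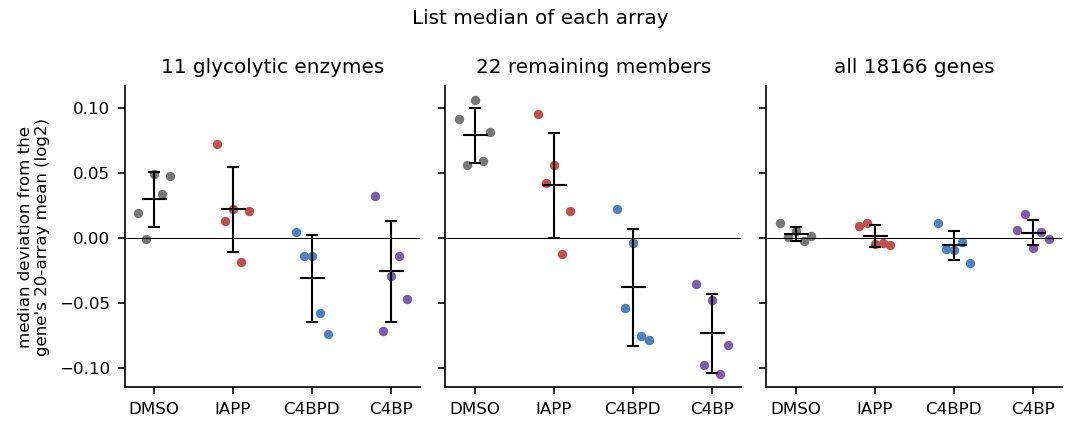
Median log2 deviation from the mean of each gene over all 20 arrays (y axis), by title group (x axis), for the 11 glycolytic enzymes, the 22 remaining members and all 18166 genes. Each point is 1 array, and bars show the mean and SD of 5 arrays. The remaining members stand at a mean of 0.079 in DMSO, 0.040 in IAPP, -0.038 in C4BPD and -0.073 in C4BP, and all genes stay within -0.019 and 0.019.

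The transporters were represented by Slc2a1 (GLUT1, the widespread glucose carrier), Slc2a3 (GLUT3) and Slc16a3 (the lactate exporter MCT4). Slc2a1 read 2786, 2709, 2667, 2670 and 2596 in DMSO (replicates 1 to 5, as in all lists of values here) and 2573, 2593, 2462, 2123 and 2451 in IAPP. In C4BPD Slc2a1 read 2470, 2332, 2318, 2159 and 2298, and in C4BP 2394, 2376, 2428, 2041 and 2298. Every DMSO array was above every array of the other 3 groups. Slc2a1 fell by 0.22 on the log2 scale in C4BPD (SE 0.055, limma adjusted p = 0.0486) and by 0.22 in C4BP (SE 0.055, limma adjusted p = 0.0176). In IAPP its difference of -0.14 was not called (limma adjusted p = 0.243). The C4BPD call ended under quantile normalization (limma adjusted p = 0.0537) and without any 1 array except IAPP 2, IAPP 4, C4BPD 1 or C4BP 4 (limma adjusted p up to 0.132), and the C4BP call ended without C4BP 4 (0.0561). Slc2a3, under the probe-set median, and Slc16a3, whose mean was under it in C4BPD only, differed from DMSO by -0.092 to 0.13 and were not called.

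Phosphofructokinase, the committed enzyme of glycolysis, is built from liver, muscle and platelet subunits, and each of the 3 genes was called in a different set of comparisons. Pfkl read 2596, 2561, 2571, 2507 and 2685 in DMSO and 2508, 2408, 2433, 2260 and 2500 in IAPP. In C4BPD Pfkl read 2388, 2385, 2214, 2150 and 2209, and in C4BP 2432, 2359, 2258, 2163 and 2235, all below every DMSO array. The liver subunit fell by 0.19 on the log2 scale in C4BPD (SE 0.042, limma adjusted p = 0.0221) and by 0.18 in C4BP (SE 0.042, limma adjusted p = 0.0137), and its IAPP value of -0.094 was not called. The C4BPD call ended without DMSO 5 (limma adjusted p = 0.0691), C4BPD 3 (0.0616), C4BPD 4 (0.0689) or C4BPD 5 (0.0669), and with the fit on these groups alone (0.0641).

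The platelet subunit was the 1 member higher in IAPP. Pfkp read 1307, 1084, 1232, 1184 and 1054 in DMSO and 1598, 1378, 1470, 1375 and 1383 in IAPP, which did not overlap. In C4BPD Pfkp read 1273, 1076, 1373, 1032 and 1111, and in C4BP 1472, 1160, 1416, 1365 and 1228, and both ranges overlapped DMSO. Pfkp rose by 0.30 on the log2 scale in IAPP (1.23-fold, SE 0.082, limma adjusted p = 0.0481), and in C4BP the difference from DMSO was 0.18 (limma adjusted p = 0.276). The IAPP call ended without any 1 array except DMSO 1, C4BPD 1, C4BPD 3, C4BPD 4, C4BP 1 or C4BP 2, at a limma adjusted p up to 0.143.

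The muscle subunit Pfkm moved little. Pfkm read 4562, 4677, 4605, 4608 and 4540 in DMSO and 4335, 4380, 4505, 4142 and 4269 in IAPP, which did not overlap. In C4BPD Pfkm read 4671, 4520, 4847, 4618 and 4737, and in C4BP 4476, 4428, 4457, 4462 and 4253, where the highest C4BP array was below the lowest of C4BPD. No difference of Pfkm from DMSO was called, the values being -0.088 in IAPP, 0.025 in C4BPD and -0.059 in C4BP on the log2 scale. In the arrays titled IAPP and C4BP together, against DMSO and C4BPD together, Pfkm fell by 0.086 on the log2 scale (SE 0.023, limma adjusted p = 0.0209). That call ended in 4 of the fits that left out all arrays of a number (limma adjusted p up to 0.139).

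Aldolase, which splits the sugar that phosphofructokinase makes, was measured through Aldoa and Aldoc. Aldoa read 2661, 2507, 2731, 2567 and 2634 in DMSO and 2942, 2715, 2697, 2731 and 2849 in IAPP. In C4BPD Aldoa read 2493, 2495, 2406, 2491 and 2447, below every array of the 3 other groups, and in C4BP 2788, 2854, 2603, 2694 and 2899. Against C4BPD, Aldoa rose by 0.17 in C4BP (SE 0.038, limma adjusted p = 0.0180), whereas no difference from DMSO was called, at 0.089, -0.087 and 0.079 in IAPP, C4BPD and C4BP. C4BP vs C4BPD called 3 members (1 higher, 2 lower) and 2.37% of all genes (0.754% higher, 1.62% lower). The count was 1 without C4BPD 3, C4BPD 5, C4BP 2 or C4BP 5 or with those groups alone, 6 without C4BP 3 and 5 with dim genes left out. The Aldoa call ended without C4BPD 3 (limma adjusted p = 0.0530), C4BPD 5 (0.0512), C4BP 2 (0.0563) or C4BP 5 (0.0593), and with those groups alone (0.103).

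Aldoc, the brain form of the enzyme, was called in 1 comparison. Aldoc read 323, 367, 348, 379.7 and 421 in DMSO and 329.8, 279, 329, 288 and 348 in IAPP. In C4BPD Aldoc read 326, 312, 316, 283 and 334, and in C4BP 326, 230.0, 288, 316 and 285, where the C4BP and DMSO ranges overlapped. It fell by 0.35 on the log2 scale in C4BP (SE 0.087, limma adjusted p = 0.0162), and its values of -0.22 in IAPP and -0.22 in C4BPD were not called. The C4BP call ended without DMSO 5 (limma adjusted p = 0.0578) and with those groups alone (0.0687).

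**Figure D3:**
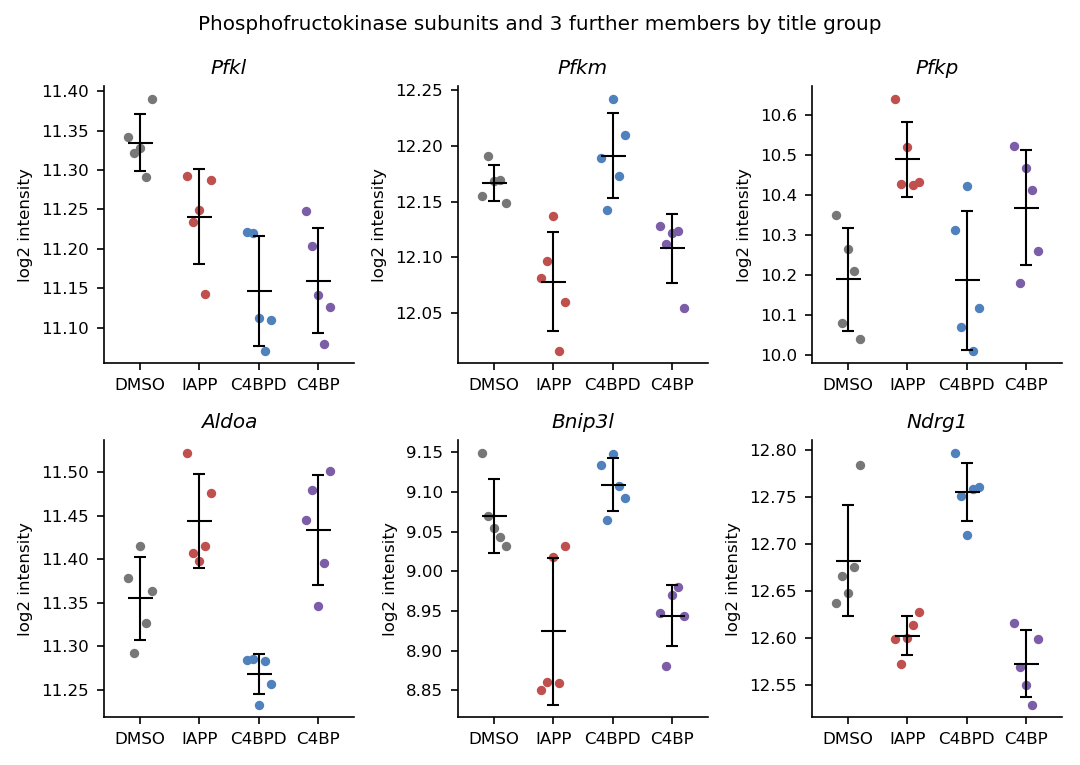
Log2 intensity (y axis) of Pfkl, Pfkm, Pfkp, Aldoa, Bnip3l and Ndrg1 by title group (x axis). Each point is 1 array, bars show the mean and SD of 5 arrays, and the y axes differ and do not start at 0. Pfkl is highest in DMSO, Pfkp is higher in IAPP than in DMSO, Aldoa is lowest in C4BPD, and Bnip3l and Ndrg1 are higher in C4BPD than in C4BP.

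The other 6 glycolytic enzymes passed no test. Gpi, which makes fructose 6-phosphate, was at 9751 ± 177 (SD, n = 5) in DMSO and at 9306 ± 165 in C4BP, a log2 difference of -0.067 (95% interval -0.13 to -0.0073). Its DMSO arrays did not overlap those of C4BPD or C4BP. Pgk1, which yields the first ATP of the pathway, differed from DMSO by -0.028, -0.044 and -0.11 in IAPP, C4BPD and C4BP. Eno2, the neuronal enolase, was at 2991 ± 105 in DMSO and 2745 ± 246 in C4BPD, a difference of -0.13 (95% interval -0.25 to -0.0010). Ldhb, the lactate dehydrogenase subunit that favours making pyruvate, stood at 2678 ± 441 in DMSO and 2352 ± 350.1 in IAPP (-0.18, 95% interval -0.43 to 0.071). Ldha (125 ± 20.6 in DMSO) and Hk2 (121 ± 7.19), the inducible hexokinase, were under the probe-set median in DMSO, and their differences from it ran from -0.053 to 0.16.

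Both PFKFB enzymes were lower than in DMSO with C4BP, alone or with IAPP. Pfkfb3 makes the activator of phosphofructokinase and is a HIF target. Pfkfb3 read 943, 887, 953, 908 and 1139 in DMSO and 835, 808, 820.3, 808 and 776 in IAPP. In C4BPD Pfkfb3 read 778, 665, 692, 668 and 676, and in C4BP 645, 587, 655, 533 and 525. The lowest DMSO array was above the highest of each other group, and C4BP lay wholly below C4BPD. Pfkfb3 fell by 0.47 on the log2 scale in C4BPD (SE 0.070, limma adjusted p = 5.14e-04), by 0.71 in C4BP (SE 0.070, limma adjusted p = 1.05e-06) and, against IAPP, by 0.47 in C4BP (limma adjusted p = 0.00174). IAPP vs DMSO, at -0.25, just missed the threshold (limma adjusted p = 0.0556).

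Pfkfb4, another enzyme of the same kind, was the 1 member lower in IAPP. Pfkfb4 read 551, 592, 591, 569.7 and 638 in DMSO and 458, 481, 510.0, 445 and 517 in IAPP. In C4BPD Pfkfb4 read 485, 463, 443, 449 and 502, and in C4BP 441, 464, 439, 436 and 445. Every DMSO array exceeded every other array, while the 3 treated groups overlapped one another. Pfkfb4 fell by 0.29 in IAPP (SE 0.049, limma adjusted p = 0.00138), by 0.33 in C4BPD (5.28e-04) and by 0.40 in C4BP (1.66e-05), all on the log2 scale. These 3 comparisons share the DMSO arrays. Adding C4BP to IAPP changed Pfkfb4 by -0.11, not called. Pdk1, the kinase that keeps pyruvate out of mitochondria, was at 1015 ± 45.4 (SD, n = 5) in DMSO, 933 ± 77.0 in IAPP, 941 ± 59.8 in C4BPD and 941 ± 61.5 in C4BP, and no difference was called.

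**Figure D4:**
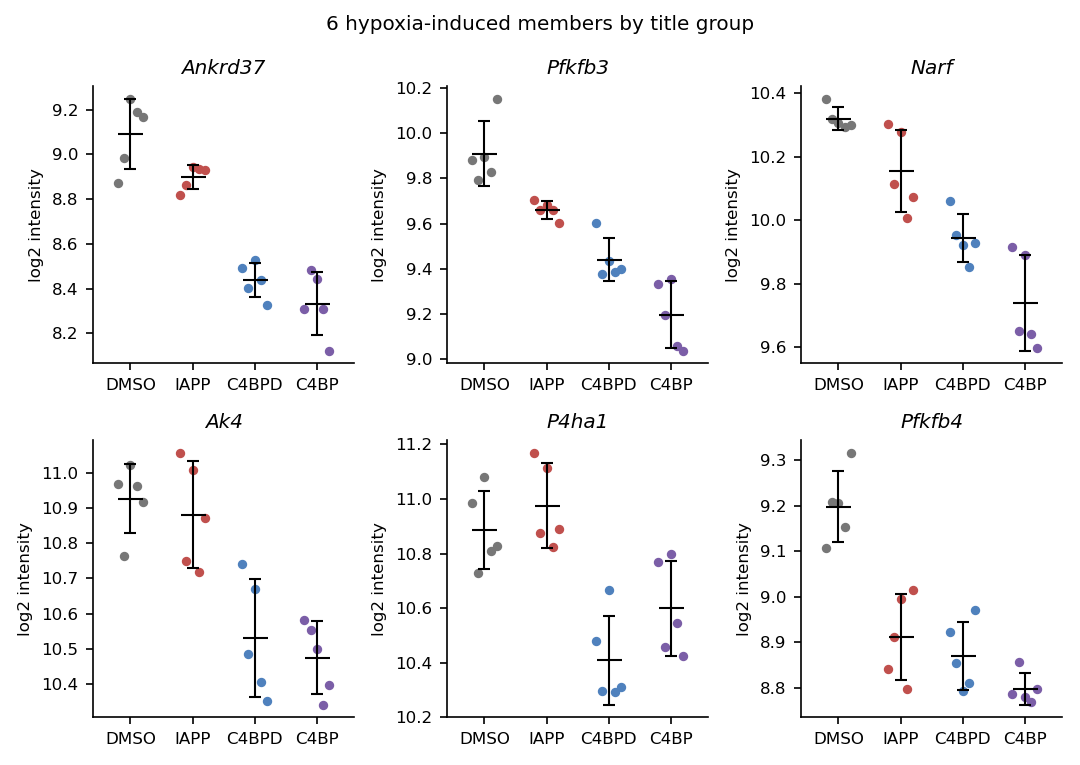
Log2 intensity (y axis) of Ankrd37, Pfkfb3, Narf, Ak4, P4ha1 and Pfkfb4 by title group (x axis). Each point is 1 array, bars show the mean and SD of 5 arrays, and the y axes differ and do not start at 0. Ankrd37 separates DMSO and IAPP from C4BPD and C4BP, the mean of Pfkfb3 steps down over the 4 groups, and Pfkfb4 separates DMSO from all others.

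The remaining called members serve several roles outside the pathway. Ankrd37, an ankyrin-repeat protein and direct HIF target, showed the largest difference from DMSO among the 33 members. Ankrd37 read 469, 506, 607, 583 and 576 in DMSO and 451, 466, 493, 489.6 and 488 in IAPP, which overlapped. In C4BPD Ankrd37 read 359.7, 339, 369.6, 347 and 322, and in C4BP 317, 358, 348, 317 and 279. All 10 arrays titled C4BPD or C4BP were below all 10 titled DMSO or IAPP. Group means were 548 ± 58.2, 478 ± 18.0, 347 ± 18.6 and 324 ± 31.1 (SD, n = 5) in DMSO, IAPP, C4BPD and C4BP. Ankrd37 fell by 0.65 on the log2 scale in C4BPD (SE 0.070, limma adjusted p = 9.06e-06), by 0.76 in C4BP (5.25e-07) and, against IAPP, by 0.56 in C4BP (1.69e-04).

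Narf, a hypoxia-induced gene whose protein binds prelamin A, read 1335, 1277, 1264, 1254 and 1259 in DMSO and 1263, 1108, 1242, 1028 and 1077 in IAPP. In C4BPD Narf read 1067, 992, 970.5, 924 and 973, and in C4BP 966, 804, 949, 799 and 775. The DMSO arrays lay above all C4BPD and C4BP arrays. Narf fell by 0.38 on the log2 scale in C4BPD (SE 0.066, limma adjusted p = 0.00263), by 0.58 in C4BP (7.56e-06) and, against IAPP, by 0.41 in C4BP (0.00298, or 0.0803 with those groups alone). Kdm3a, a histone demethylase raised by HIF, read 1749, 1789, 1783, 1804 and 1847 in DMSO and 1830, 1604, 1748, 1796 and 1700 in IAPP. In C4BPD Kdm3a read 1532, 1704, 1660, 1637 and 1548, and in C4BP 1612, 1474, 1615, 1560 and 1580. Its C4BP arrays were all below DMSO, a fall by 0.20 on the log2 scale (SE 0.042, limma adjusted p = 0.00549), and its C4BPD value of -0.15 was not called.

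Ak4 is an adenylate kinase of the mitochondrial matrix. Ak4 read 2003, 1739, 2078, 1994 and 1932 in DMSO and 2131, 1722, 2061, 1684 and 1873 in IAPP. In C4BPD Ak4 read 1712, 1435, 1628, 1355 and 1306, and in C4BP 1534, 1504, 1447, 1297 and 1350. C4BPD and C4BP were wholly below DMSO, and the C4BP group was below IAPP as well. Ak4 fell by 0.40 on the log2 scale in C4BPD (SE 0.080, limma adjusted p = 0.00909), by 0.45 in C4BP (9.46e-04) and, against IAPP, by 0.41 in C4BP (0.0179). The call against IAPP ended without IAPP 1 (limma adjusted p = 0.0556), IAPP 3 (0.0657), C4BP 4 (0.0664) or C4BP 5 (0.0546), and with those groups alone (0.0693).

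P4ha1 and P4ha2 are catalytic subunits of the enzyme that hydroxylates prolines in collagen. P4ha1 read 2025, 1695, 2167, 1793 and 1816 in DMSO and 2304, 1879, 2215, 1811 and 1900 in IAPP. In C4BPD P4ha1 read 1427, 1256, 1623, 1256 and 1269, and in C4BP 1744, 1407, 1783, 1494 and 1373. C4BPD lay wholly below DMSO and IAPP, whereas C4BP overlapped DMSO. P4ha1 fell by 0.48 on the log2 scale in C4BPD (SE 0.094, limma adjusted p = 0.00733), and its C4BP difference of -0.29 was not called (limma adjusted p = 0.0841). C4BP vs IAPP gave -0.38 with no overlap (limma adjusted p = 0.0828). With the replicate number as a block, P4ha1 was called lower in C4BP against DMSO (limma adjusted p = 7.16e-05) and against IAPP (4.36e-05). In that fit it was higher in C4BP than in C4BPD, by 0.19 on the log2 scale (0.00489). P4ha2 was at 790.2 ± 82.0 (SD, n = 5) in DMSO, with differences of 0.077, -0.056 and -0.021 in IAPP, C4BPD and C4BP, none called.

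Vegfa, the angiogenic growth factor and the best-known HIF target, was called in 1 comparison with DMSO. Vegfa read 4078, 3989, 4305, 4042 and 4145 in DMSO and 3706, 3727, 4050, 3993 and 3892 in IAPP. In C4BPD Vegfa read 3937, 4141, 4288, 4208 and 4208, and in C4BP 3594, 3559, 4078, 3532 and 3834, where the C4BP and DMSO ranges overlapped. It fell by 0.15 on the log2 scale in C4BP (SE 0.043, limma adjusted p = 0.0494), and stood at 0.015 in C4BPD. That call ended with those groups alone (limma adjusted p = 0.161) and without any 1 array except C4BPD 1 or C4BP 3 (up to 0.132). Adm, the vasodilator adrenomedullin, was not called, at -0.21 in C4BPD (95% interval -0.38 to -0.046). The oxygen sensors Egln1 and Egln3 were not called either. Egln3 was at 958 ± 67.0 (SD, n = 5) in DMSO and 839.5 ± 14.7 in C4BP, without overlap (-0.19, limma adjusted p = 0.0603), and Egln1 differed by -0.074 (95% interval -0.20 to 0.050).

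Bnip3l, a mitophagy receptor, and Ndrg1, a stress-induced differentiation gene, were not called against DMSO, and both were lower in C4BP than in C4BPD. Bnip3l read 568, 537, 532, 528 and 524 in DMSO and 461, 465, 519, 465 and 524 in IAPP. In C4BPD Bnip3l read 562, 536, 567, 552 and 546, and in C4BP 493, 471, 501, 505 and 493, all below C4BPD. Ndrg1 read 6371, 6497, 6419, 6545 and 7055 in DMSO and 6204, 6092, 6210, 6269 and 6327 in IAPP, which did not overlap. In C4BPD Ndrg1 read 7119, 6894, 6699, 6931 and 6940, and in C4BP 6279, 6078, 5998, 5911 and 6206, again all below C4BPD. Relative to C4BPD, Bnip3l fell by 0.17 on the log2 scale in C4BP (SE 0.042, limma adjusted p = 0.0354) and Ndrg1 by 0.18 (SE 0.034, limma adjusted p = 0.00354). The Bnip3l call ended without C4BPD 1, 3, 4 or 5 or without C4BP 1, 2 or 5 (limma adjusted p from 0.0616 to 0.109), with array weights (0.0690) and with those groups alone (0.0751). Against DMSO the IAPP values were -0.15 and -0.080.

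The last 4 members showed no called difference. Higd1a, a mitochondrial protein of the respiratory chain, Car9, the carbonic anhydrase of hypoxic cells, Ddit4, an inhibitor of mTORC1, and Mxi1, a MYC antagonist with 2 probe sets of its own, differed from DMSO by -0.074 to 0.076 over the 3 treated groups. Their 95% intervals in C4BP vs DMSO ran from -0.25 to 0.18 for Higd1a to -0.10 to 0.048 for Mxi1.

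C4BP was given in the presence and in the absence of IAPP, in comparisons that share no array. Of the 33 members, 27 had the same sign in C4BPD vs DMSO and in C4BP vs IAPP (81.8%), as did 61.7% of all genes. The 8 members lower in C4BPD vs DMSO were all below 0 in C4BP vs IAPP. Of all 351 genes called in C4BPD vs DMSO, 327 kept their sign there. Pfkfb3, Ak4, Ankrd37 and Narf were called in both (50% of the 8 and 100% of the 4). Over all genes 71 were called in both (20.2% of the 351 and 64.5% of the 110 called in C4BP vs IAPP). For IAPP vs DMSO and C4BP vs C4BPD, 25 members had the same sign (75.8%), against 65.8% of all genes. Here 0 members were called in both. Over all genes 255 were, 41.5% of the 614 called in IAPP vs DMSO and 59.2% of the 431 called in C4BP vs C4BPD. The interaction asks whether C4BP minus C4BPD differs from IAPP minus DMSO, and it called 0 of 33 members and 0.0495% of all genes. In limma, 2 members had an unadjusted p under 0.05, and the lowest adjusted p was 0.984. The 95% intervals of the interaction, not adjusted over genes, reached 0.085 to 0.36 log2 units to each side of the estimate. A call needed an adjusted p under 0.05 over all genes. Interactions smaller than these widths, and some larger ones, could therefore be missed with these arrays.

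Averaging over IAPP, the 10 arrays titled C4BP or C4BPD were set against the 10 titled DMSO or IAPP. In this comparison 9 members were lower and 0 higher, with 4.06% of all genes called (1.53% lower). Ankrd37 fell by 0.61 on the log2 scale, Pfkfb3 by 0.47, P4ha1 by 0.43, Ak4 by 0.40 and Narf by 0.40, at limma adjusted p from 1.46e-07 to 5.28e-04. The falls of Pfkfb4 (0.22), Kdm3a (0.15), Slc2a1 (0.15) and Pfkl (0.13) were smaller. The Slc2a1 call had a limma adjusted p of 0.0346 and ended without any 1 array except DMSO 5, IAPP 4, C4BPD 1, C4BP 1, C4BP 2 or C4BP 3 (up to 0.0740). Pfkl was 1 glycolytic enzyme of 11 in this set, and the other 8 were among the 22 remaining members.

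Averaging over C4BP, the arrays titled IAPP or C4BP were set against those titled DMSO or C4BPD. Here 9 members were called, 2 higher and 7 lower, and 7.58% of all genes (3.11% higher, 4.47% lower). Pfkp rose by 0.24 on the log2 scale (SE 0.058, limma adjusted p = 0.0117) and Aldoa by 0.13 (0.00400). Pfkfb3 fell by 0.25, Narf by 0.18, Pfkfb4 by 0.18, Bnip3l by 0.16, Ndrg1 by 0.13, Vegfa by 0.12 and Pfkm by 0.086. Leaving out all arrays of a number ended some of these calls (limma adjusted p up to 0.1395). Pfkm lost its call in 4 such fits, Vegfa and Narf in 3 each, Pfkp in 2 and Aldoa in 1. Pfkfb3, Pfkfb4 and Narf were lower in both averaged comparisons. Ak4, P4ha1 and Ankrd37 were lower in the C4BP comparison and were not called in the IAPP comparison, at -0.050, 0.14 and -0.15.

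**Figure D5:**
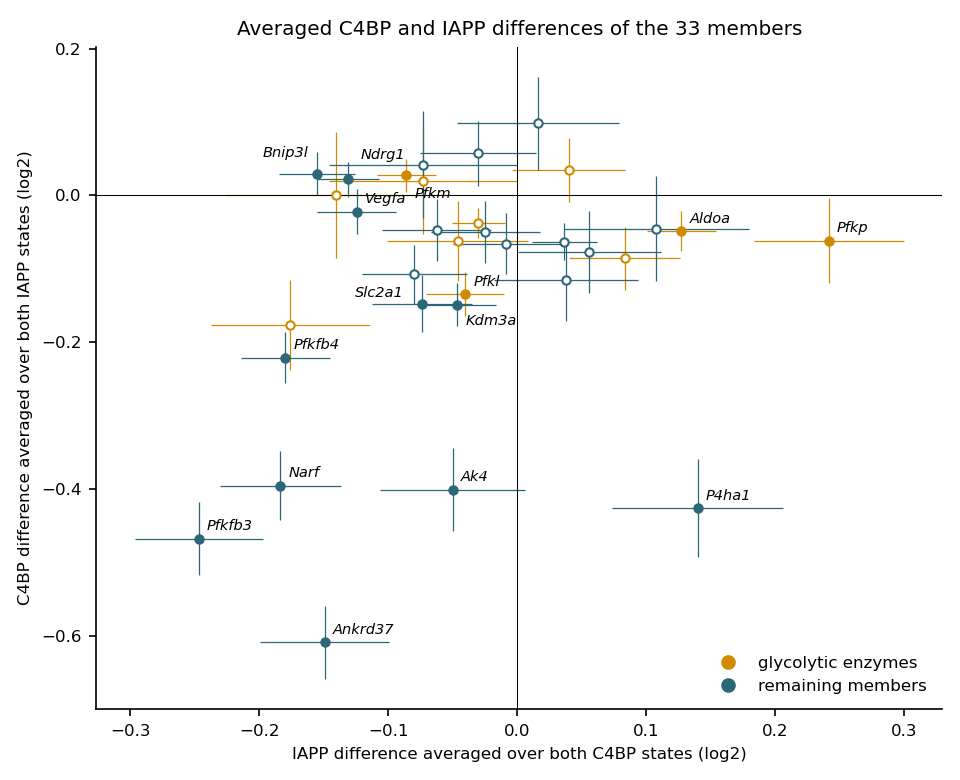
C4BP difference averaged over both IAPP states (y axis, log2) against the IAPP difference averaged over both C4BP states (x axis, log2) for the 33 members. Each point is 1 gene, bars are standard errors, and filled, named points were called in at least 1 of these averages. The lowest points are Ankrd37 at -0.61 and Pfkfb3 at -0.47, and Pfkp lies farthest right at 0.24.

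The difference between the averaged effects equals C4BPD vs IAPP, which tests it directly. It called 8 members (3 higher, 5 lower) and 5.46% of all genes (3.64% higher, 1.82% lower). P4ha1 fell by 0.57 on the log2 scale in C4BPD relative to IAPP (limma adjusted p = 6.46e-04), Ankrd37 by 0.46 (3.01e-04), Ak4 by 0.35 (0.0105), Pfkp by 0.30 (0.0335) and Aldoa by 0.18 (0.00681). Bnip3l rose by 0.19 (0.00936), Ndrg1 by 0.15 (0.00851) and Pfkm by 0.11 (0.0419). In this comparison arrays of the same number deviated together, as most did in C4BP vs IAPP too. With the number as a block, C4BPD vs IAPP called 14 members (4 higher, 10 lower). Over all 18166 genes 1908 were called with the block, against 992 without it. The block added Eno2, Pfkfb3, P4ha2, Narf and Mxi1 among the lower and Vegfa among the higher, at limma adjusted p from 0.00538 to 0.0477. The Pfkp call ended without IAPP 1, 2 or 3 or C4BPD 2, 4 or 5 (limma adjusted p up to 0.0944) and, with those groups alone, Pfkp (0.0515), Bnip3l (0.0512) and Pfkm (0.133) were not called. Pfkm also lost its call with centred arrays (0.0813) and without any 1 array except DMSO 1, DMSO 3, IAPP 3, C4BPD 2, C4BP 1, C4BP 2, C4BP 4 or C4BP 5 (up to 0.120).

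Other genes of the same pathways were read from lists written from general knowledge of those pathways. Of 29 other genes of glycolysis and pyruvate handling, 1 was higher and 2 lower in IAPP vs DMSO, 0 were called in C4BPD vs DMSO and 6 were lower in C4BP vs DMSO. Slc16a1, the lactate and pyruvate carrier MCT1, rose by 0.35 on the log2 scale in IAPP (SE 0.088, limma adjusted p = 0.0285), and in C4BP its value was 0.21. Pc, pyruvate carboxylase, fell by 0.24 in IAPP and by 0.29 in C4BP (limma adjusted p = 0.00731 and 7.35e-04). Pklr, the liver pyruvate kinase, fell by 0.25 in C4BP, Pdp2, a pyruvate dehydrogenase phosphatase, by 0.26. Slc2a2, the beta-cell glucose carrier GLUT2, fell by 0.14 in C4BP and by 0.11 in IAPP.

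Of 16 components of the HIF system, 0 were called in IAPP or C4BPD against DMSO. In C4BP the HIF-2 alpha subunit Epas1 fell by 0.33 on the log2 scale (SE 0.085, limma adjusted p = 0.0192) and the partner subunit Arnt2 rose by 0.24 (0.0166). Hif1a differed from DMSO by -0.091, -0.032 and -0.014 in IAPP, C4BPD and C4BP, and Vhl, which recognises hydroxylated HIF, by 0.0079, -0.064 and -0.035, none called. The arrays measure RNA, and HIF alpha is set largely by protein breakdown.

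Among 33 further hypoxia targets, some genes fell in C4BPD and C4BP as the members did. The called rises against DMSO were in IAPP and C4BP, the groups that held IAPP under the likely reading of the titles. C4BP vs IAPP called 1 of these targets higher and 1 lower. In C4BPD vs DMSO 4 were lower and 0 higher: Tfrc, the transferrin receptor, fell by 0.41 on the log2 scale, Nt5e by 0.31, Stc1 by 0.30 and the repressor Bhlhe40 by 0.26 (limma adjusted p from 3.53e-07 to 0.0317). In C4BP vs DMSO 3 were higher and 4 lower. Tfrc fell by 0.67 and Nt5e by 0.42, while Hmox1, the heme-degrading enzyme, rose by 1.12 and Rragd, a GTPase of amino acid sensing, by 0.30. In IAPP vs DMSO 3 rose and 0 fell: Hmox1 by 0.75, Rragd by 0.30 and Plin2, a lipid droplet coat, by 0.25.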

How the data were processed

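RNA of 20 INS-1 wells was measured on Affymetrix Rat Gene 2.0 arrays. The deposited values are intensities, 1 per probe set, summarized by the authors on a linear scale that was read from the values (4.729 to 18573.71). The submitters' processing notes name Affymetrix Expression Console. Which normalization it ran, in which version and with which annotation, is not given in the sources used here. No 2 arrays held identical values.

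The members, the other gene lists and the tests were chosen with earlier results of these data known. Groups were taken from the titles. Of 36685 probe sets, 18511 carried 1 gene symbol in the platform annotation, 575 several and 17599 none, and the brightest of each gene gave 18166 genes. The log2 of each intensity was used with no pseudocount, further scaling or filter. All 20 arrays entered a single limma 3.58.1 model (R 4.3.3, lmFit then eBayes) with a mean per title group, which left 16 residual degrees of freedom. Tests were two-sided, with Benjamini-Hochberg adjustment over all genes and a threshold of 0.05. The script was tested on simulated data. Folds and differences are of geometric means, while group levels are plain means of the intensities ± SD. Levels of different probe sets are not compared. Promoters are RefSeq sequences of GRCr8. Figures used Python 3.11.15 and matplotlib 3.10.9.

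Array values are listed for members called in any comparison, related genes are named in pairs, and of each other list up to 4 genes with the smallest p per comparison with DMSO are named. Same-numbered arrays were checked for pairing by correlating their deviations from the group means across genes. All 5 pairs were over 0.1 in C4BPD vs IAPP (0.152 to 0.305), so its count with a block is given. Not all pairs were over 0.1 in the other comparisons. The median correlation was 0.169 in C4BPD vs IAPP, 0.318 in C4BP vs IAPP and 0.095 to 0.18 in the rest. Alternatives were centring, quantile normalization, array weights, a replicate block, fits on 2 groups alone, leaving out dim genes, the mean of a gene's probe sets, the treatment field as the group, and leaving out single arrays or all arrays of a number.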

Additional observations from a re-analysis of the deposited data

Results flagged for a closer look

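In each member and group of 5 arrays, the gap from the end array to its nearest neighbour was divided by the range of the group, and 10 of 132 such groups had a share above the 95% critical value of 0.710 for 5 samples. Chance alone gives about 1 in 20 of such groups. Single arrays stood high in C4BP 2 in Hk2 (145 against a next value of 125, share 0.790), IAPP 2 in Slc16a3 (246 against a next value of 189, share 0.714), C4BPD 1 in Egln1 (1494 against a next value of 1302, share 0.826) and DMSO 1 in Narf (1335 against a next value of 1277, share 0.713). Pfkfb3 had a high array in 2 groups, DMSO 5 (1139 against a next value of 953, share 0.713) and C4BPD 1 (778 against a next value of 692, share 0.743). Ndrg1 was high in DMSO 5 (7055 against a next value of 6545, share 0.735). Single arrays stood low in C4BP 5 in Pfkm (4253 against a next value of 4428, share 0.790), IAPP 4 in Slc2a1 (2123 against a next value of 2451, share 0.719) and DMSO 5 in Car9 (294 against a next value of 338, share 0.804). DMSO 5 was the array in 3 of the 10, and the calls of Pfkfb3 and Ndrg1 were kept without it. No interaction of a member was called, so no difference between the C4BP effects with and without IAPP is listed.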

How the results depend on the processing

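Of the 53 called values of members over all comparisons, 42 kept their call under median centring, quantile normalization, array weights, leaving out dim genes, the mean of a gene's probe sets and fits on the groups of a comparison alone. Leaving out each single array in turn kept 41 calls and ended 12 in at least 1 such fit, at a limma adjusted p up to 0.143, and 0 changed direction. Leaving out all 4 arrays of a number kept 23 and ended 30 (limma adjusted p up to 0.230). Gene counts from these arrays are limited by their number, and 4 members had a lowest group mean under the probe-set median. The C4BP average is C4BP and C4BPD against DMSO and IAPP, and the IAPP average is IAPP and C4BP against DMSO and C4BPD. Members called in IAPP vs DMSO numbered 4 with centring, quantile normalization or without dim genes. C4BP vs IAPP gave 2 with those groups alone, and C4BP vs C4BPD gave 1 with those groups alone and 5 without dim genes. The interaction median of the glycolytic enzymes was 0.064, and 0.022 with quantile normalization and 0.032 with array weights. The causes of these shifts were not tested, except that leaving out dim genes tests fewer genes.

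With the replicate number as a block, all 53 calls were kept, and the members called were 6 in IAPP vs DMSO, 9 in C4BPD vs DMSO, 14 in C4BP vs DMSO, 5 in C4BP vs IAPP, 8 in C4BP vs C4BPD, 14 in C4BPD vs IAPP, 9 in the C4BP average, 11 in the IAPP average, 16 in the F test and 0 in the interaction. Of all 18166 genes, the block called 1133, 797, 1884, 352, 958 and 1908 in these pairwise comparisons, in the same order. It called 1536 in the C4BP average, 2252 in the IAPP average, 2604 in the F test and 18 in the interaction. All 5 same-numbered pairs correlated over 0.1 in C4BPD vs IAPP and 2 to 4 of 5 in the other pairwise comparisons, where the samples share a number that the labels do not explain.

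Over the fits that left out 1 array or all arrays of a number, the members called ranged over 1 to 3 in IAPP vs DMSO, 4 to 8 in C4BPD vs DMSO, 6 to 11 in C4BP vs DMSO, 2 to 4 in C4BP vs IAPP, 0 to 6 in C4BP vs C4BPD, 4 to 10 in C4BPD vs IAPP, 0 in all such fits of the interaction, 7 to 10 in the C4BP average, 4 to 10 in the IAPP average and 7 to 14 in the F test. The median log2 difference of the glycolytic enzymes ranged over -0.052 to 0.0029 in IAPP vs DMSO, -0.075 to -0.019 in C4BPD vs DMSO, -0.073 to -0.054 in C4BP vs DMSO, -0.072 to -0.027 in C4BP vs IAPP, -0.023 to -0.0069 in C4BP vs C4BPD, -0.044 to 0.017 in C4BPD vs IAPP, 0.016 to 0.091 in the interaction, -0.063 to -0.035 in the C4BP average and -0.051 to -0.025 in the IAPP average. That of the remaining members ranged over -0.078 to -0.059 in IAPP vs DMSO, -0.15 to -0.069 in C4BPD vs DMSO, -0.13 to -0.11 in C4BP vs DMSO, -0.10 to -0.050 in C4BP vs IAPP, -0.061 to -0.012 in C4BP vs C4BPD, -0.089 to -0.046 in C4BPD vs IAPP, -0.025 to 0.025 in the interaction, -0.086 to -0.061 in the C4BP average and -0.074 to -0.039 in the IAPP average.

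Grouping by the treatment field called 0 members in every comparison and in the F test. The glycolytic median was then 0.013 in IAPP vs DMSO, -0.0072 in C4BP vs DMSO, 0.014 in C4BP vs IAPP, 0.028 in C4BP vs C4BPD, 0.0018 in the interaction, -0.0069 in the C4BP average and 0.015 in the IAPP average. The median of the remaining members was 0.028 in IAPP vs DMSO, 0.012 in C4BPD vs DMSO, 0.055 in C4BP vs DMSO, 0.056 in C4BP vs IAPP, 0.061 in C4BP vs C4BPD, -0.014 in C4BPD vs IAPP, 0.018 in the C4BP average and 0.033 in the IAPP average. Of the 53 called values, 7 kept their direction without passing, and 46 took the opposite sign, none of them called, as log2 differences. IAPP vs DMSO turned for Pfkfb4 (0.065). C4BPD vs DMSO turned for Pfkl (0.019), Pfkfb3 (0.18), Pfkfb4 (0.043), Ak4 (0.023), P4ha1 (0.028), Ankrd37 (0.20) and Narf (0.17). C4BP vs DMSO turned for Pfkl (0.052), Aldoc (0.17), Slc2a1 (0.061), Pfkfb3 (0.37), Pfkfb4 (0.12), Vegfa (0.021), Ak4 (0.17), Ankrd37 (0.36), Narf (0.29) and Kdm3a (0.11). C4BP vs IAPP turned for Pfkfb3 (0.22), Ak4 (0.14), Ankrd37 (0.31) and Narf (0.11). C4BP vs C4BPD turned for Ndrg1 (0.036). C4BPD vs IAPP turned for Pfkm (-0.057), Aldoa (0.021), Bnip3l (-0.076), P4ha1 (0.021), Ndrg1 (-0.023) and Ankrd37 (0.15). The C4BP average turned for Pfkl (0.037), Slc2a1 (0.031), Pfkfb3 (0.20), Pfkfb4 (0.049), Ak4 (0.079), P4ha1 (0.068), Ankrd37 (0.25), Narf (0.14) and Kdm3a (0.094). The IAPP average turned for Pfkm (0.025), Pfkp (-0.0084), Aldoa (-0.028), Pfkfb3 (0.17), Pfkfb4 (0.070), Bnip3l (0.030), Ndrg1 (0.036) and Narf (0.15). The treatment field puts arrays of different titles together. Arrays it labels DMSO were mostly titled C4BP or C4BPD. Arrays it labels as IAPP with C4BP were mostly titled DMSO or IAPP. The field therefore largely swapped these titles in C4BP vs DMSO. How far this regrouping accounts for the turned signs was not tested.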

Other observations

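Arrays numbered 1 and 3 were the highest pair within each of the 4 title groups for Pfkp, Pgk1, Pdk1, P4ha1 and P4ha2, 5 of the 33 members. Over all genes 295 of 18166 (1.62%) had this pattern, and no member had it for any other pair of numbers. Ldhb was lowest in number 1 in all 4 groups, as were 726 genes (4% of all), and Pfkl was lowest in number 4, as were 52 genes (0.286%). The pattern was chosen after its values were seen and was not tested, and the labels do not say what the numbers stand for.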
